A study of Mus musculus with 20 samples.

Results

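Rps13 and Rps15a encode proteins of the small (40S) ribosomal subunit, and both genes have several near-identical processed copies elsewhere in the mouse genome. Their 10 rows, 4 for Rps13 and 6 for Rps15a, were followed in islets of P2Y14-knockout and wild-type mice. They were chosen by gene symbol from the 26211 rows of a table of normalized read counts, and selected on the knockout and wild-type values of these same libraries. The differences between the groups in these 10 rows are therefore given as a description, with no test.

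The knockout group held 10 islet libraries labelled P2Y14-knockout and the wild-type group held 10 islet libraries labelled wildtype. P2Y14, the product of P2ry14, is a cell-surface receptor activated by UDP-sugars, and the series concerns insulin release and smooth muscle function. Both groups carry the same mixed strain label, C57BL/6 x 129S6. The labels give no age and no litter and do not state that each library came from its own mouse, so p-values measure the spread between these libraries. Islets, the endocrine clusters of the pancreas, were freed by enzyme digestion, picked by hand and cultured overnight, and the library kit does not mark strand.

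A ribosomal protein is made in large and roughly equal amounts with the other proteins of its subunit, and its messenger RNA is among the most abundant in a cell. Such abundant messages are now and then copied back into DNA and inserted at new places in the genome, without introns and usually without the parent's promoter. These insertions are processed pseudogenes. A sequencing read that lies where a copy and its parent have the same bases fits both, so the row that receives it depends on the aligner, the counter and the genome sequence they used. How the authors counted reads with several matches is not stated in the labels.

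The copies differ from their parents at few positions, and a stretch of Rps13 is shown here because the 2 positions where Rps13-ps1 differs lie in it. Rps13-ps4 shares the changed base at position 411, and its changes at positions 106 and 121 lie outside the stretch. The lines give bases 391 to 453 of the Rps13 coding sequence and of its copies, 5′ to 3′, from GENCODE M21 transcripts on GRCm38, with capitals at the positions where any of them differ.
Rps13: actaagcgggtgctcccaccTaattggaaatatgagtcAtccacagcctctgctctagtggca
Rps13-ps2: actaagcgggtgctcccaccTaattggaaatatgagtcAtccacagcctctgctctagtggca
Rps13-ps1: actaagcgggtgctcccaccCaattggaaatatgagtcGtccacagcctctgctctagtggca
Rps13-ps4: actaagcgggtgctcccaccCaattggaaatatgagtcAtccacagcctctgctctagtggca

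Rps13 (ENSMUSG00000090862) lies on the minus strand of chromosome 7, and its coding sequence has 456 bases. Rps13-ps2 (ENSMUSG00000069972), also on the minus strand of chromosome 7, was identical to it over all 453 bases of its annotated transcript. Rps13-ps1 (ENSMUSG00000066362), on the plus strand of chromosome 8, differed by 2 substitutions, T411C and A429G, with positions counted from 1 at the A of the start codon. Rps13-ps4 (ENSMUSG00000081378), on the minus strand of chromosome 8 inside an intron of Taf1c, had 3 substitutions, C106A, G121C and T411C. An open reading frame up to the parent's stop codon, number 152, is kept in Rps13-ps1 and Rps13-ps4.

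The copies of Rps15a have diverged further, and a stretch is shown because a base shared by 4 of the 5 copies falls in it. It also holds substitutions that, among the rows shown, are found only in Rps15a-ps4, Rps15a-ps5, Rps15a-ps6 or Rps15a-ps8. The lines give bases 131 to 190 of the Rps15a coding sequence and its copies, 5′ to 3′, from the same source, with capitals at the positions where any of them differ.
Rps15a: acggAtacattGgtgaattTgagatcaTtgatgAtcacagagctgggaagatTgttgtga
Rps15a-ps4: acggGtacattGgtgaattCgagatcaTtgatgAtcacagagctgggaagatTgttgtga
Rps15a-ps5: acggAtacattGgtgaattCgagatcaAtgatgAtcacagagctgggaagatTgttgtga
Rps15a-ps6: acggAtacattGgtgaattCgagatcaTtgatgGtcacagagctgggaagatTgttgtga
Rps15a-ps7: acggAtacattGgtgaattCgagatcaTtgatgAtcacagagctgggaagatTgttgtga
Rps15a-ps8: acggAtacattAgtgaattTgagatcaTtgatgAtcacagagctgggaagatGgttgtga

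Rps15a (ENSMUSG00000008683) lies on the minus strand of chromosome 7, and its coding sequence has 393 bases. T150C was present in Rps15a-ps4, Rps15a-ps5, Rps15a-ps6 and Rps15a-ps7 and absent from Rps15a-ps8. Rps15a-ps5 (ENSMUSG00000067058, chromosome 5, minus strand) had 5 substitutions, among them T158A, and keeps an open reading frame to the parent's stop codon, number 131. It lies inside an intron of Lrrc8d, a gene on the opposite strand that encodes a subunit of the volume-regulated anion channel. Rps15a-ps6 (ENSMUSG00000083022, chromosome 11, minus strand), inside an intron of Nudcd3, also had 5 substitutions, of which C7T makes codon 3 a stop codon. Rps15a-ps7 (ENSMUSG00000081087, chromosome 2, minus strand) had 4 substitutions and 1 deleted base, with a first in-frame stop at codon 38. Rps15a-ps4 (ENSMUSG00000083757, chromosome 4, minus strand) had 10 substitutions with a first stop at codon 107. Rps15a-ps8 (ENSMUSG00000084403, chromosome 4, minus strand) was the most diverged of the copies followed here, with 30 substitutions and 92.2% identity, against 97.4% to 99.0% in the other Rps15a copies.

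How far short reads can separate the rows was described by cutting each annotated transcript into every word of 50 bases. Of the 404 words of Rps13-ps2, 100% also occur in Rps13 and 0% are found in no other annotated gene. Rps13-ps1 had 12.1% of its words to itself, Rps13-ps4 had 12.3% and Rps13 had 17.0%. In the Rps15a family the share of words found in no other gene was 50.9% for Rps15a, 57.4% for Rps15a-ps4, 52.6% for Rps15a-ps5, 44.8% for Rps15a-ps6, 33.2% for Rps15a-ps7 and 90.5% for Rps15a-ps8. With words of 100 bases it was still 0% for Rps13-ps2 and reached 100% for Rps15a-ps8. Rps13-ps2 thus had no word of either length that would separate its annotated transcript from Rps13, and Rps15a-ps8 had the most.

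**Figure D1:**
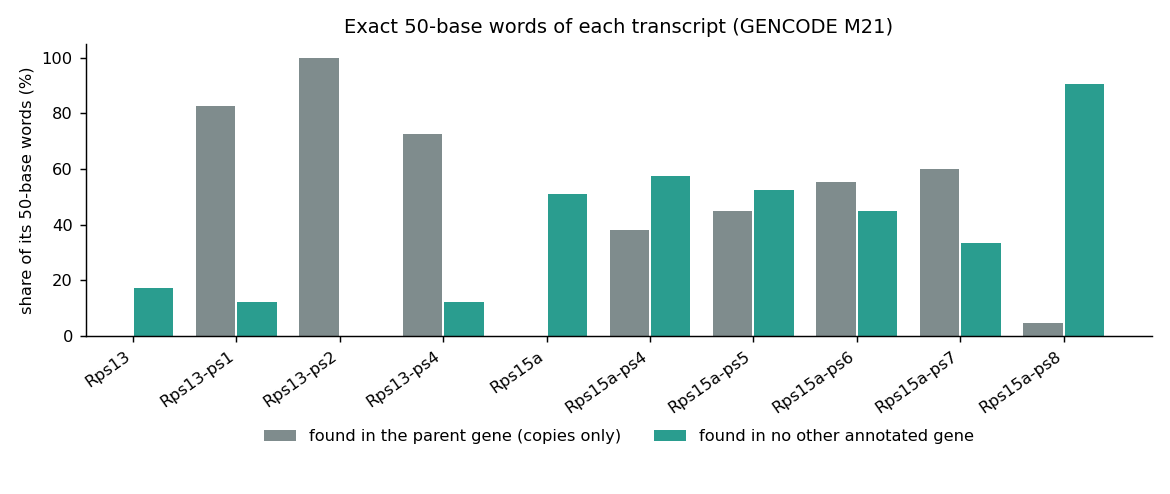
Share of the 50-base words of each annotated transcript (y axis, percent) that occur in the parent gene (grey, copies only) or in no other annotated gene (green). All words of Rps13-ps2 occur in Rps13 and none is its own, whereas 90.5% of the words of Rps15a-ps8 are found nowhere else.

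Total reads over genes ran from 34520628 to 199847246 (median 92323083) in knockout libraries, against 53766074 to 168991840 (median 105776893) in wild-type libraries. A count of 3 reads corresponded to a normalized read count of 1.28 to 7.71 in knockout libraries and 1.40 to 4.43 in wild-type libraries. P2ry14 averaged 51.2 ± 31.4 normalized reads in knockout libraries and 151 ± 67.4 in wild-type libraries (SD, n = 10 each), with 8 knockout libraries under the lowest wild-type value. Islet endocrine markers took 14.1% to 46.2% of all normalized reads in knockout libraries and 20.8% to 44.1% in wild-type libraries. Acinar markers, from the exocrine tissue around islets, took 2.23% to 10.8% in knockout libraries and 2.09% to 11.4% in wild-type libraries.

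One library stood apart in these rows. The share that each of the 10 rows took of its family's sum in knockout replicate 6 lay within the range of the wild-type libraries, for all 10 rows. Its P2ry14 value of 61.7 lay below the lowest wild-type value of 79.7. Knockout values of P2ry14 ran from 0 to 114 and so overlapped the wild-type range, and this value alone cannot settle the label. The main results for the 10 rows and their sums are given with knockout replicate 6 and, where stated, without it. Other results, among them the correlations, gene lists and neighbouring genes, include it unless stated. The decision to leave it out was made after the values had been seen.

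Over all genes, 49 of 17482 tested genes (0.28%) passed an adjusted p of 0.05 by limma, 28 with a positive and 21 with a negative difference, knockout minus wild-type. Of the 10 rows, 9 passed the filter of a mean normalized read count of 10, and 4 of these passed the same threshold. These were Rps13-ps2 and Rps15a-ps5, higher in knockout libraries, and Rps13-ps1 and Rps15a-ps8, lower. Rps15a-ps5 was no longer past it in 10 of the 20 fits that each left out a library, those without knockout replicates 3, 4, 7 and 9 and without wild-type libraries 11, 12, 15, 16, 18 and 19. Rps13-ps1 and Rps15a-ps8 were not past it with edgeR. The rows were selected on this contrast, so their count says nothing beyond that selection. Rps13-ps2 reached the filter through its knockout level, Rps15a-ps8 and, knockout replicate 6 aside, Rps13-ps1 through their wild-type level, and Rps13-ps4 did not reach it.

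Rps13 itself, the gene with introns from which the S13 protein is made, had 30.5, 39.6 and 92.5 normalized reads as its lowest, median and highest knockout values, against 10.1, 53.5 and 70.4 in wild-type libraries. The groups overlapped almost completely, and the highest knockout value belonged to replicate 6. Its means were 47.3 ± 19.6 in knockout and 50.5 ± 18.9 in wild-type libraries (SD, n = 10 each), a difference of −0.03 on the log2(value + 1) scale. Without knockout replicate 6 that difference was −0.15. In bulk RNA such as this, fewer cells of a type and less RNA per cell cannot be told apart.

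Rps13-ps2, the copy with the same bases as Rps13, ran from 0 through a median of 975 to 2279.5 normalized reads in knockout libraries, against 0, 1.72 and 5.91 in wild-type libraries. Knockout replicate 6 had 0 reads, and the other 9 knockout libraries lay at 495 or above. Every wild-type library lay below 6 normalized reads, 3 of them at 0, so the groups were far apart except for knockout replicate 6. The means were 978 ± 580 in knockout and 2.15 ± 2.11 in wild-type libraries (SD, n = 10 each). The log2 difference was 7.65, or 8.65 without knockout replicate 6, and 5.74 with a pseudocount of 10 in place of 1.

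Rps13-ps1, the copy on chromosome 8, had the opposite pattern. Its lowest, median and highest values were 0, 1.71 and 1280.1 normalized reads in knockout libraries, against 212, 674 and 1221 in wild-type libraries. The value of 1280.1 was that of knockout replicate 6, the highest of all 20 libraries, whereas the other 9 knockout libraries had at most 12.2 and 5 of them had 0. The knockout mean was 131 ± 404 with that library and 3.21 ± 4.62 (SD, n = 9) without it, against 706 ± 298 (SD, n = 10) in wild-type libraries. The log2 difference was −7.14, or −8.04 without knockout replicate 6, and −5.02 with a pseudocount of 10. On the recovered reads it was −2.55 with edgeR and −4.33 with DESeq2.

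Rps13-ps4 stayed low in every library, at 1.54, 4.29 and 6.15 normalized reads in knockout libraries and 0.774, 3.46 and 6.23 in wild-type libraries. The groups overlapped over their whole range, and the values lay near the level of 3 reads. Other Rps13-related rows of the table that share 50-base words with the family were also low: Gm15483 averaged 18.2 normalized reads in knockout and 17.7 in wild-type libraries, and Rps13-ps5 averaged 0.758 in knockout and 0.308 in wild-type libraries. A further related gene, AC165962.4, was not analysed here.

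**Figure D2:**
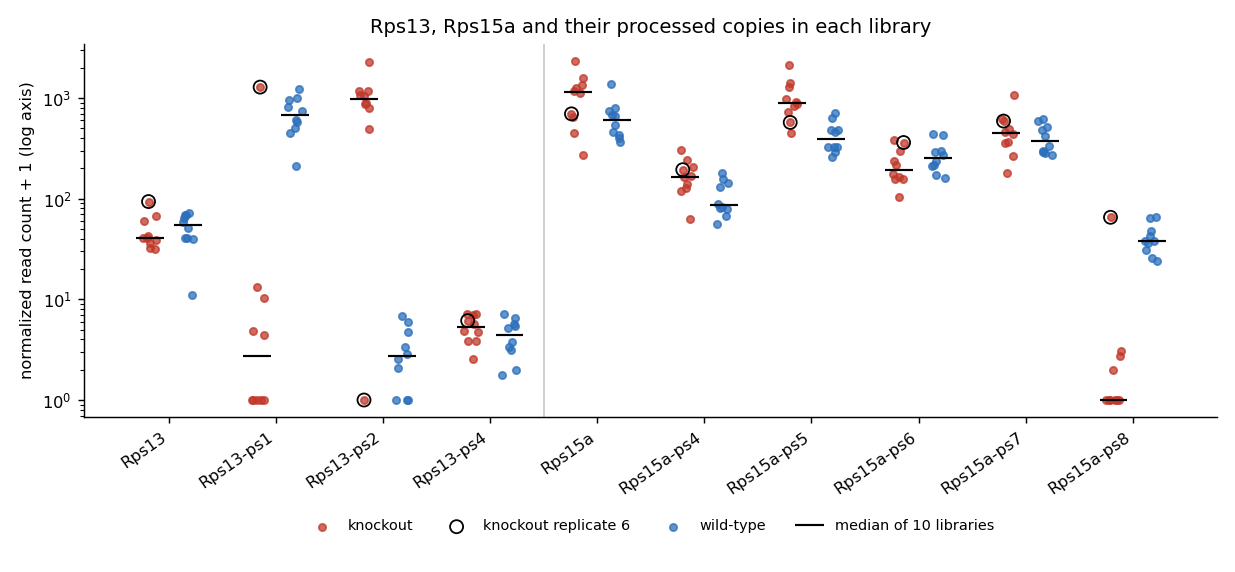
Normalized read count plus 1 (log axis) of each row in each knockout (red) and wild-type (blue) library, with a bar at the median of the 10 libraries and a ring around knockout replicate 6. Rps13-ps1 and Rps13-ps2 sit in opposite places in the groups, and the ringed library lies with the wild-type libraries in both.

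As shares of the family's reads, the rows exchanged places while Rps13 stayed a minor part. Rps13-ps2 took 91.5% to 97.8% of the Rps13 sum in the 9 knockout libraries other than replicate 6, against 0% to 1.04% in wild-type libraries. Rps13-ps1 took 0% to 1.11% in those 9 knockout libraries, against 85.8% to 96.6% in wild-type libraries. Neither share overlapped between the groups once replicate 6 was left out.

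In knockout replicate 6, Rps13-ps1 had 498 of the 536 Rps13 reads, a share of 92.9% with an exact 95% binomial interval of 90.4% to 94.9%. Rps13-ps2 had 0 of those reads, for which the limit of 3 reads is a share of 0.560% and the exact 95% interval ends at 0.686%. In the wild-type libraries, Rps13-ps2 had between 0 and 5 reads, and the highest share, 1.04% in library 11, had an exact 95% interval of 0.338% to 2.40%. Intervals and limits cover counting error only.

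Rps13 took 4.57% ± 2.20 of the sum in knockout and 7.03% ± 3.04 in wild-type libraries (SD, n = 10 each), with overlapping groups. Rps13-ps4 took 0.429% ± 0.282 in knockout and 0.615% ± 0.758 in wild-type libraries. The mean share of Rps13-ps2 over all 10 knockout libraries was 85.5% ± 30.1, and that of Rps13-ps1 was 9.52% ± 29.3, where the spread comes from replicate 6. Reads placed on 1 of the 2 copies thus made up most of the family in every library, the copy being Rps13-ps2 in 9 of the 10 knockout libraries and Rps13-ps1 in the remaining knockout library and in all 10 wild-type libraries.

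Rps15a, the parent gene of the other family, had 269, 1147 and 2330.0 normalized reads in knockout libraries and 362, 597 and 1385 in wild-type libraries. The groups overlapped, with 2 knockout libraries above the highest wild-type library and 1 below the lowest. Its means were 1088 ± 609 in knockout and 643 ± 300.1 in wild-type libraries (SD, n = 10 each), a log2 difference of 0.63. The row was not among those past the adjusted p of 0.05 by limma.

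Rps15a-ps5, the copy inside Lrrc8d, had 452, 889 and 2139 normalized reads in knockout libraries and 258, 390 and 707 in wild-type libraries. In 8 of the 10 knockout libraries it exceeded the highest wild-type library, and all 10 exceeded the wild-type median. Knockout replicate 6, at 571, and knockout replicate 5, at 452, lay within the wild-type range. The means were 1015 ± 489 in knockout and 428 ± 151 in wild-type libraries (SD, n = 10 each), and the log2 difference was 1.19, or 1.26 without replicate 6. Lrrc8d, whose intron holds the copy on the other strand, averaged 1989 ± 282 in knockout and 2078 ± 229 in wild-type libraries, with a log2 difference of −0.07 (adjusted p = 0.851 by limma).

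Rps15a-ps8, the most diverged copy, had 0, 0 and 64.3 normalized reads in knockout libraries and 23.0, 36.9 and 64.1 in wild-type libraries. The value of 64.3 was that of knockout replicate 6, just above every wild-type library. In the other 9 knockout libraries it was at most 2.04, and 6 of them had 0, so the groups did not overlap without replicate 6. The means were 6.90 ± 20.2 in knockout libraries and 40.3 ± 14.2 in wild-type libraries (SD, n = 10 each). The log2 difference was −4.29, or −4.85 without replicate 6, and −1.93 with a pseudocount of 10 in place of 1. With edgeR on the recovered reads it was −2.85.

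Rps15a-ps4 had 61.5, 165 and 303 normalized reads in knockout libraries and 55.5, 84.7 and 178 in wild-type libraries, a log2 difference of 0.68. Rps15a-ps6 had 103, 193 and 381 in knockout libraries and 161, 254 and 437 in wild-type libraries, a log2 difference of −0.31. Rps15a-ps7 had 180.0, 447 and 1072 in knockout libraries and 270, 377 and 617 in wild-type libraries, a log2 difference of 0.15. All of these overlapped between the groups, and none passed the adjusted p of 0.05. A further related row, Rps15a-ps3, averaged 20.4 normalized reads in knockout libraries and 33.3 in wild-type libraries, with 54.0 in knockout replicate 6. The related rows Rps15a-ps2, Gm13407 and Gm11972 averaged at most 5.33 normalized reads in either group, and Gm26983 and Gm47091 were not analysed here.

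Within the Rps15a sum the make-up shifted between copies while the parent's share stayed close. Rps15a took 34.9% ± 8.44 of the sum in knockout and 33.7% ± 8.04 in wild-type libraries (SD, n = 10 each), and Rps15a-ps4 took 5.97% ± 1.40 in knockout and 5.56% ± 1.40 in wild-type libraries. Rps15a-ps5 took 34.6% ± 6.67 in knockout and 22.6% ± 3.06 in wild-type libraries. Without replicate 6 its share ran from 28.8% to 45.8% in knockout libraries, against 17.5% to 27.0% in wild-type libraries, with no overlap.

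Rps15a-ps6 went the other way, at 7.95% ± 2.66 of the sum in knockout and 14.3% ± 1.77 in wild-type libraries (SD, n = 10 each). Without replicate 6 its share ran from 5.26% to 9.67% in knockout libraries and from 11.5% to 17.4% in wild-type libraries, again with no overlap. Rps15a-ps7 took 16.3% ± 3.69 in knockout and 21.8% ± 3.27 in wild-type libraries, and 8 knockout libraries had a smaller share than any wild-type library. Rps15a-ps8 took at most 0.0606% in the 9 knockout libraries and 1.72% to 2.69% in wild-type libraries. Knockout replicate 6 had 23.1% for Rps15a-ps5, 14.6% for Rps15a-ps6, 23.8% for Rps15a-ps7 and 2.60% for Rps15a-ps8, all inside the wild-type ranges.

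**Figure D3:**
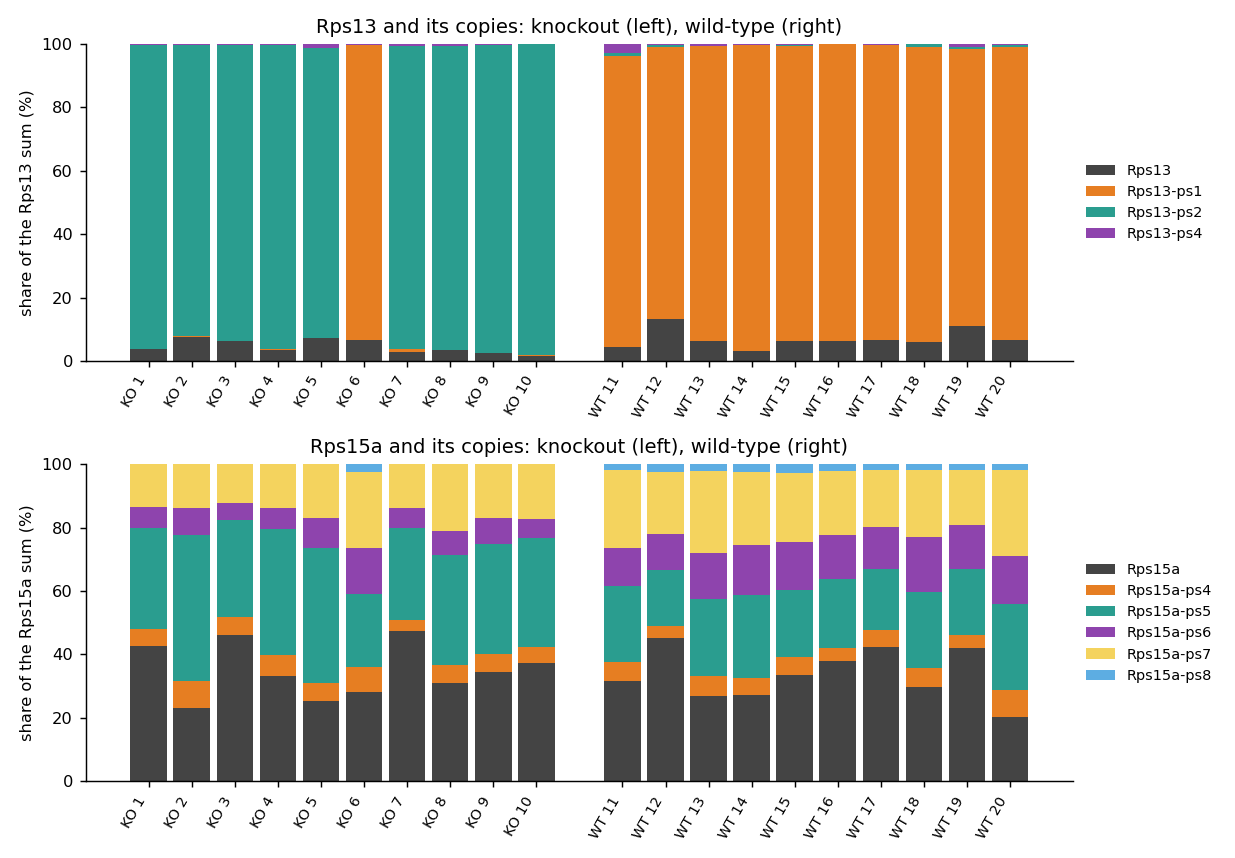
Share of the Rps13 sum (top) and the Rps15a sum (bottom) taken by each row (y axis, percent) in each knockout and wild-type library. Rps13-ps2 fills at least 91.5% of the upper bar in 9 knockout libraries and Rps13-ps1 fills at least 85.8% in knockout replicate 6 and in the wild-type libraries, and the lower bars of knockout replicate 6 also have the make-up of wild-type bars.

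Without knockout replicate 6, 12 of the 17482 tested genes (0.0686%) had every knockout library above every wild-type library, and 13 (0.0744%) had every knockout library below. With all 20 libraries, 6 genes (0.0343%) did not overlap in either direction. Rps13-ps2 was among the 12, and Rps13-ps1 and Rps15a-ps8 were among the 13. For 16 of these 25 genes, knockout replicate 6 lay inside the wild-type range. It lay above that range for Rps13-ps1, Rps15a-ps8 and Hist1h2al, all lower in the other knockout libraries. For Edn3, Enpep, Rpl34, Myo7a and Adgrf4 it lay between the groups, and for Sost, at 0, with the other knockout libraries. The same count with another library left out was not taken. As the rows were selected on this contrast, nothing is read from their place among the 25.

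Levels of different rows were compared per kilobase of the annotated transcript, which runs from 387 bases for Rps15a-ps8 to 640 bases for Rps15a. In knockout libraries the order by mean was Rps15a-ps5, Rps13-ps2, Rps15a, Rps15a-ps7, Rps15a-ps6, Rps15a-ps4, Rps13-ps1, Rps13, Rps15a-ps8 and Rps13-ps4. The highest mean was 2582 ± 1244 normalized reads per kilobase and the second 2159 ± 1280 (SD, n = 10 each). These SDs hold variation between libraries that the rows share, and rows were not compared within libraries, so the order is one of means only. In the 9 knockout libraries other than replicate 6, Rps13-ps2 stood at 2399 ± 1093 per kilobase, and Rps13-ps1 at 5.96 ± 8.59, below Rps13 at 71.7 ± 20.5 and Rps13-ps4 at 9.21 ± 3.63.

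In wild-type libraries the order per kilobase was Rps13-ps1, Rps15a-ps5, Rps15a-ps7, Rps15a, Rps15a-ps6, Rps15a-ps4, Rps15a-ps8, Rps13, Rps13-ps4 and Rps13-ps2. The first 4 lay between 1312 ± 554 and 1004 ± 469 normalized reads per kilobase (SD, n = 10 each), and they too were not compared within libraries. Rps13 had 85.7 ± 32.1 per kilobase there, against 80.3 ± 33.2 in knockout libraries. In both groups, therefore, the row of a processed copy carried far more reads per kilobase than the intron-bearing Rps13 gene, while Rps15a kept a level in the range of its copies.

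The sum over the Rps13 rows ran from 542 through a median of 1106 to 2332 normalized reads in knockout libraries, against 231, 722 and 1265 in wild-type libraries. The groups overlapped, with knockout replicates 6 and 10 above the highest wild-type library. The means were 1161 ± 472 in knockout and 762 ± 305 in wild-type libraries (SD, n = 10 each), a ratio of 1.52 with replicate 6 and 1.49 without it. Without knockout replicate 10 instead, the ratio was 1.35. The change in the sum was thus far smaller than that of either copy.

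The sum over the Rps15a rows had 1066, 2775 and 6225 as its lowest, median and highest knockout values, against 1341, 1675 and 3280.2 in wild-type libraries. Of the 10 knockout libraries 4 lay above the highest wild-type library and 1, replicate 5, below the lowest. The means were 2987 ± 1394 in knockout and 1897 ± 647 in wild-type libraries (SD, n = 10 each), a ratio of 1.57, or 1.60 without replicate 6. Without knockout replicate 10 instead, the ratio was 1.38.

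The sum of the other 40S protein genes differed by a similar ratio. It averaged 242385 ± 122384 normalized reads in knockout and 172078 ± 61535 in wild-type libraries (SD, n = 10 each), a ratio of 1.41, or 1.40 without knockout replicate 6. The ratio without knockout replicate 10 was not taken for this sum. As a percentage of this 40S sum, the Rps13 sum was 0.498% ± 0.0646 in knockout and 0.442% ± 0.103 in wild-type libraries, and the Rps15a sum was 1.25% ± 0.243 in knockout and 1.12% ± 0.160 in wild-type libraries. Both percentages overlapped between the groups. Other processed ribosomal protein copies were taken by symbol, starting with Rps or Rpl and ending in -ps, with or without a number. This gave 156 rows outside the 10 rows, and copies under other names, such as Gm15483 and Gm13407, are not among them. The 156 rows include 4 low rows of these families, Rps13-ps5, Rps13-ps6, Rps15a-ps2 and Rps15a-ps3. The sum over the 156 rows averaged 72229 ± 31970 in knockout and 52171 ± 18051 in wild-type libraries, a ratio of 1.38. Without those 4 rows the sum averaged 72203 ± 31967 in knockout and 52132 ± 18037 in wild-type libraries.

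Within each group the family sums followed the 40S sum across libraries. In knockout libraries the Rps13 sum and the 40S sum had Pearson r = 0.974 and Spearman rho = 0.855 (permutation p = 3.4e-04 for r, 0.00142 adjusted over the 10 relations computed; 0.0096 adjusted for rho). Without replicates 5 and 10, the farthest from the median of the 40S sum, r was 0.746. In wild-type libraries r was 0.864 and rho 0.915 (adjusted permutation p = 0.00185 and 0.0061), and r was 0.882 without libraries 14 and 17.

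The Rps15a sum followed the 40S sum with r = 0.940 and rho = 0.806 in knockout libraries (adjusted permutation p = 0.00142 and 0.0125) and with r = 0.883 and rho = 0.855 in wild-type libraries (adjusted permutation p = 0.00189 and 0.0096). Leaving out the 2 farthest libraries gave r = 0.625 in knockout and r = 0.840 in wild-type libraries. Between the 2 families, the sums had r = 0.877 and rho = 0.564 in knockout libraries (adjusted permutation p = 0.00706 and 0.0966). Without replicates 5 and 10 that r was 0.149, so the relation in knockout libraries rested on those 2 libraries. In wild-type libraries it was r = 0.647 and rho = 0.758 (adjusted permutation p = 0.0438 and 0.0191), and 0.493 without libraries 11 and 14. With the sum of the 156 other processed copies in place of the 40S sum, r was 0.968 for Rps13 and 0.937 for Rps15a in knockout libraries, and 0.778 for Rps13 and 0.889 for Rps15a in wild-type libraries, the same to 3 digits without the 4 rows of these families. The values of both axes share the size factor of each library.

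**Figure D4:**
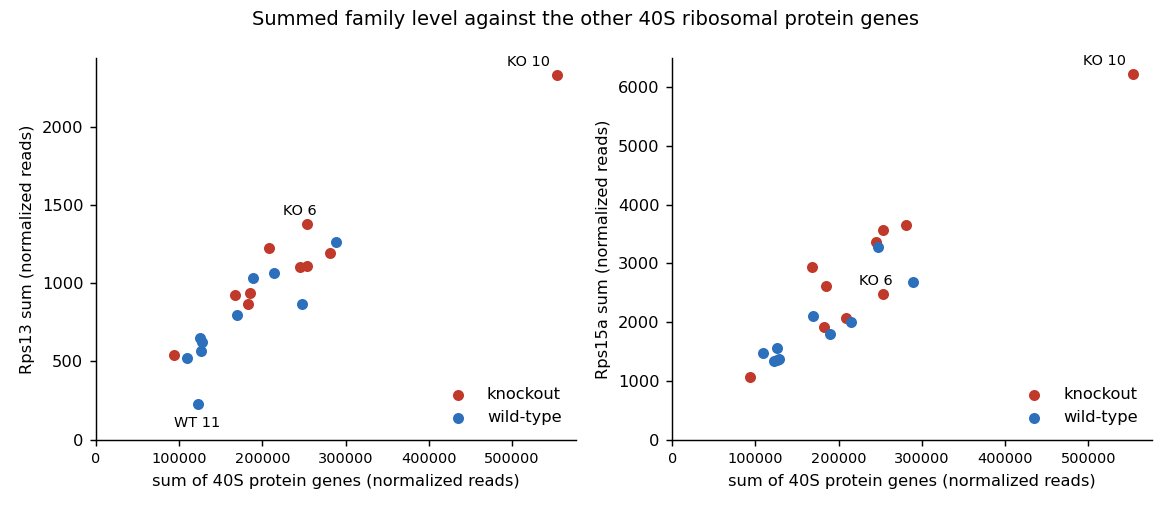
Sum over the Rps13 rows (left) and the Rps15a rows (right), in normalized reads, against the sum over 32 other 40S protein genes, also in normalized reads, with 1 point for each knockout (red) and wild-type (blue) library. Knockout replicate 6 and the other libraries lie along 1 band, with knockout replicate 10 at the top at a Rps13 sum of 2332 and wild-type library 11 low for Rps13 at 231.

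Of 31 other 40S protein genes tested, 0 passed the adjusted p of 0.05 by limma, 29 had a positive log2 difference, and the median was 0.48, against −0.0022 over all genes tested. Over all 17482 genes tested, 8664 had a positive log2 difference. At an unadjusted p under 0.05 by limma there were 5 of the 31, against 1563 of all 17482. Both edgeR and DESeq2 also gave 0 past the adjusted p. Rack1, a scaffold protein on the small subunit, had a log2 difference of 0.28 (adjusted p = 0.732 by limma).

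Of 47 protein genes of the large (60S) subunit tested, 2 passed, both higher, 46 had a positive log2 difference, and the median was 0.39. At an unadjusted p under 0.05 by limma there were 13. Rpl34 had 84.8 to 344 normalized reads in knockout libraries and 14.8 to 68.2 in wild-type libraries, with no overlap. Its log2 value rose by 1.84 (SE 0.25; limma, adjusted p = 5.25e-04). The gene lies on chromosome 3, which held 4 of the 12 higher and 3 of the 13 lower genes that did not overlap without knockout replicate 6. How many of all tested genes lie on chromosome 3 was not counted, so nothing is read from these numbers. Rpl34 was among those 4, and whether its place on that chromosome plays a part was not tested. Rpl17 averaged 62.3 ± 17.0 normalized reads in knockout and 25.3 ± 13.5 in wild-type libraries (SD, n = 10 each) and rose by 1.39 (SE 0.28, adjusted p = 0.0324 by limma), and each of the 10 knockout libraries exceeded the wild-type mean. Leaving out 1 library at a time gave adjusted p from 0.0143 to 0.0826, and the call of Rpl17 ended in 7 of these 20 fits, those that left out knockout replicates 4, 7 and 8 and those that left out wild-type libraries 11, 12, 15 and 19. With edgeR its adjusted p was 0.0607. Both genes have processed copies in the genome, and the words they share with them were not measured. Together these 2 were 2.56% of the 78 ribosomal protein genes tested, against 0.28% of all genes.

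Of the 156 rows of processed ribosomal protein copies taken by their -ps symbols, 71 passed the filter on low values. Rps15a-ps3 was the only one of these 71 from the Rps13 and Rps15a families, and copies under other names were not counted. By limma 0 passed the adjusted p of 0.05, 65 had a positive log2 difference, and the median was 0.41. An unadjusted p under 0.05 was found for 12 of the 71, against 1563 of all 17482 genes tested. The count past the adjusted p was also 0 by edgeR and by DESeq2. The highest of them by mean, Rpsa-ps10 and Rps6-ps4, had log2 differences of 0.23 (adjusted p = 0.806 by limma) and 0.30 (adjusted p = 0.690). Assembly factors of the 40S subunit, which process its RNA and release it to the cytoplasm, had a median of 0.03 over 19 tested genes. Of these, 0 passed by limma, edgeR or DESeq2, and 0 had an unadjusted p under 0.05 by limma. Nop56, a core protein of the snoRNA particles that methylate ribosomal RNA, averaged 3478 ± 840 normalized reads in knockout and 3370 ± 501 in wild-type libraries (SD, n = 10 each), and Tsr1, a late assembly factor, 2149 ± 405 in knockout and 2207 ± 379 in wild-type libraries.

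**Figure D5:**
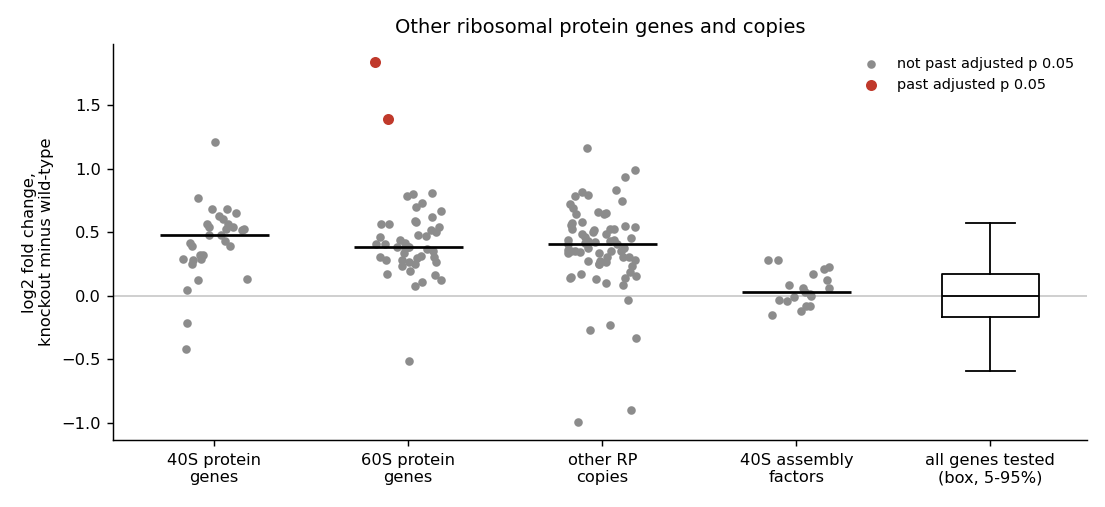
Log2 difference, knockout minus wild-type, of each tested gene in 4 lists, with a bar at the median, and a box (quartiles) with whiskers (5th to 95th percentile) over all 17482 tested genes. The ribosomal protein lists have medians of 0.39 to 0.48, the assembly factors 0.03, and Rpl34 and Rpl17 (red) were past the adjusted p of 0.05.

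The rows whose libraries were ranked most like each leading row were found by the mean absolute difference in rank over the 20 libraries. For Rps13-ps2 these were Capza1 (2.3 ranks), Lix1l (2.5), Gm11632 (2.6), Bcat1 (2.65) and Trim12a (2.65). Capza1 and Lix1l lie on chromosome 3, Gm11632 on chromosome 11, Bcat1 on chromosome 6 and Trim12a on chromosome 7. Trim12a had 0 normalized reads in knockout replicate 6, like Rps13-ps2, 93.2 to 275 in the other knockout libraries, and 0 to 30.2 in wild-type libraries. Capza1, a subunit of the actin capping protein, had 79.7 in knockout replicate 6, 153 to 257 in the other knockout libraries, and 32.8 to 123 in wild-type libraries.

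For Rps13-ps1 the nearest row was Rps15a-ps8, at 1.35 ranks, from the other family and another chromosome. Then came Rps15a-ps3 (2.3 ranks), Bdh2 and Hist1h2al (2.4 each) and ENSMUSG00000028269 (2.45), an identifier without a symbol. Rps15a-ps3 lies on chromosome 4, Bdh2 on chromosome 3 and Hist1h2al on chromosome 13. Hist1h2al had 195 normalized reads in knockout replicate 6, at most 3.07 in the other knockout libraries, and 40.1 to 134 in wild-type libraries. For Rps15a-ps5 the nearest were Snord15b (1.6), Snord35a (1.7), Rpl13a (1.9), Gm11478 (2.1) and Gm9493 (2.2), and for Rps15a they were H2afj (1.7), Atp5k-ps2 (1.8), Snord32a (1.9), ENSMUSG00000074660 (2) and Rpl35a (2.1). Rpl13a and Rpl35a encode proteins of the 60S subunit. Ranks were taken over both groups, so a shared difference between the groups adds to the likeness.

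For the leading rows, the nearest tested gene on each side was read from the annotation order, so genes that were not tested can lie between. Neighbours of Rps13 and Rps15a-ps8, which are not leading rows, were added after the values had been seen. Next to Rps13 on chromosome 7, Plekha7, which encodes a protein of epithelial cell junctions, had 778, 890 and 1162 as its lowest, median and highest knockout values, against 1007, 1427 and 1830 in wild-type libraries. All 10 knockout libraries were below the wild-type mean, and its log2 value fell by 0.63 (SE 0.11; limma, adjusted p = 0.00732, and 0.00126 to 0.0209 with each library left out in turn). As Plekha7 was taken in after the values had been seen, these p-values are given as a description. Pik3c2a, on the other side, which encodes a class II phosphoinositide 3-kinase, averaged 2831 ± 909 in knockout and 1727 ± 355 in wild-type libraries (SD, n = 10 each), a log2 difference of 0.68 (adjusted p = 0.111 by limma, 0.0416 to 0.200 with each library left out in turn, and 0.0111 with DESeq2). Knockout replicate 6 lay inside the wild-type range for both neighbours. It had 1154 normalized reads for Plekha7, and 1686 for Pik3c2a, the lowest knockout value, where wild-type libraries ran from 1088 to 2214. An exon of Rps13 also overlaps the annotated Snord14a, at a mean of 1.87 in knockout and 1.45 in wild-type libraries.

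Beside Rps13-ps2, the small GTPase gene Rab38 averaged 30.0 ± 13.8 normalized reads in knockout and 7.56 ± 6.19 in wild-type libraries (SD, n = 10 each). Its log2 difference of 2.25 did not pass (adjusted p = 0.0811 by limma, 0.0535 to 0.167 when 1 library was left out), and it passed with DESeq2 (adjusted p = 0.0152). All 10 knockout libraries lay above its wild-type mean, replicate 6 with the highest value, 51.4, where Rps13-ps2 had 0. Tmem135, on the other side of Rps13-ps2, had a log2 difference of −0.13 (adjusted p = 0.753 by limma). N4bp1 and Zfp423 next to Rps13-ps1, Xylt1 and Arl6ip1 next to Rps15a, and Tmem38b next to Rps15a-ps8 had adjusted p from 0.289 to 0.956 by limma, and so did the hosts Taf1c and Nudcd3 of Rps13-ps4 and Rps15a-ps6.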

How the data were processed

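The authors deposited normalized gene read counts, handled here as a signal unit, in which each library's reads had been divided by that library's size factor. Per the submitters' processing notes, DESeq 1.16.0, Cufflinks 1.3.0, Bowtie 0.9.9, TopHat 1.3.3 and FastQC were used with mm9, without stated roles. The counter and its settings are not stated. Values were whole multiples of 1 step in each column, which returned whole reads for 100% of values within 0.05 reads. All 20 columns were used. Wild-type columns are numbered 11 to 20, and the labels 1 to 10.

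Names, chromosomes and transcripts came from GENCODE M21 (GRCm38), which named 23950 of 26211 identifiers. The files use mm9, so no coordinates are printed. Copies were aligned to the parent coding sequence with Biopython 1.88.

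limma 3.58.1 (R 4.3.3; lmFit, eBayes with a mean trend) was run on log2 of the value plus 1, for genes with a mean of at least 10 over the 20 libraries, with genotype as the only term and Benjamini-Hochberg adjustment over all 17482 genes. It was tested on simulated data. edgeR 4.0.16 and DESeq2 1.42.0 on recovered reads, pseudocounts of 0.5 and 10, no filter, a filter of 100, TMM factors and each library left out were alternatives. Correlations used two-sided permutation tests with 100000 resamples. Named genes were the 10 rows, genes of the ribosomal lists past the threshold or, where none was, the 2 with the highest mean, and, for the leading copy or gene of each family in each group, the 5 nearest in rank order and the neighbouring and overlapping genes. Neighbours of Rps13 and Rps15a-ps8, host genes of other copies, and the related rows of each family were added after the values were seen. The rows and lists were chosen with earlier results of these data known. The values of some genes that this rule takes are left out here.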

Additional observations from a re-analysis of the deposited data

Results flagged for a closer look

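A sample was marked where, among the 10 libraries of a group, its gap to the nearest other library divided by the group's range exceeded Dixon's 95% critical value. Chance marks about 1 in 20 such groups, and 14 of 44 were marked here. Of these, 6 were knockout replicate 6 and 4 were knockout replicate 10. Rows of a family share reads and a sum, so the marks are not independent.

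Knockout replicate 6 was marked for Rps13-ps1 at 1280.1 normalized reads and for Rps15a-ps8 at 64.3. Its shares of the family sum were marked for Rps13-ps1 (92.9%), Rps13-ps2 (0%), Rps15a-ps6 (14.6%) and Rps15a-ps8 (2.60%). All 4 of these shares lay inside the wild-type ranges. Its summed levels, 1378 normalized reads for Rps13 and 2470.1 for Rps15a, were not marked.

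Knockout replicate 10 was marked for Rps13-ps2 at 2279.5 normalized reads, Rps15a-ps7 at 1072, the Rps13 sum at 2332 and the Rps15a sum at 6225. It also had the highest sum of other 40S protein genes, 554183 normalized reads. The shares of the family sums were not marked in this library. Knockout replicate 5 was marked for a Rps13-ps4 share of 1.14%, from 4 reads.

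Among wild-type libraries, library 11 was marked for Rps13 at 10.1 normalized reads and for a Rps13-ps4 share of 2.70%, from 13 reads. Wild-type library 17 was marked for Rps15a at 1385 normalized reads.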

How the results depend on the processing

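No paired analysis was possible because the wild-type columns carry the numbers 11 to 20 and cannot be matched to the replicate numbers 1 to 10 of the labels. No count or sum changed direction in any alternative run, and neither did the log2 difference of any of the 10 rows but Rps13, which was near 0 and ran from −0.26 (without wild-type library 11) to 0.04 (without wild-type library 12). The count of 49 genes over all genes was 29 with a filter of 100 and 137 with DESeq2, and ran from 27 (without knockout replicate 4) to 74 (without knockout replicate 6), and was 32 with knockout replicate 8 left out, 32 with knockout replicate 9 left out and 31 with wild-type library 19 left out. Of the 10 rows, 4 were past the threshold by limma 2, Rps13-ps2 and Rps15a-ps5, with edgeR, and 3 with a filter of 100, where Rps15a-ps8 was not tested, and in the 10 fits that left out a library and lost Rps15a-ps5. The count of ribosomal protein genes was 2, and 1, without Rpl17, with no filter, with a filter of 100 or with edgeR, and ran from 1 to 2 when 1 library was left out. The counts of 0 for the 156 other processed copies and assembly factors stayed at 0 in every alternative run. The ratio of the Rps13 sums was 1.56 over copies only, 1.53 for medians and 1.51 with TMM factors, and that of the Rps15a sums was 1.51, 1.66 and 1.56. With each library left out in turn, the Rps13 ratio ran from 1.35 (without knockout replicate 10) to 1.64 (without wild-type library 14). The Rps15a ratio ran from 1.38 (without knockout replicate 10) to 1.71 (without wild-type library 17). Depth limits rows of a few reads, such as Rps13-ps4. Short words shared between rows limit the values per copy.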
